A study of Mus musculus with 16 samples.

Results

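The comparison set 4 B16R2L melanoma tumours that carried a short hairpin RNA against Mdk (shMdk) against 4 that carried a non-targeting hairpin (shCtrl), all 8 from mice given an IgG2a control antibody. The 8 tumours were chosen by the treatment label of each sample, out of 16 in the series. B16R2L is a mouse melanoma cell line, and its cells were injected into mice. The antibody was given 2 times a week for 2 weeks once tumours had reached 100 mm3, per the series' design text, which gives no dose for IgG2a. The other 8 tumours, 4 of each line, received an antibody against PD1 (clone RMP1-14, at 10 mg/kg per the labels). They entered the fit for the shared estimate of spread and supplied the same line contrast in other animals. The host strain, sex and age were not given in the sources used here. Each line carried 1 hairpin, so the loss of Mdk and any other difference between the lines cannot be told apart.

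Mdk encodes midkine, a secreted heparin-binding growth factor that acts through cell surface proteoglycans such as syndecans and through receptors that include LRP1 and nucleolin. It is abundant in the embryo and is made again by many tumours. Many genes named below are known targets of interferons, cytokines whose receptors are coupled to JAK kinases, which activate STAT factors. STAT factors induce the transcription factor IRF1, and together they induce CIITA, the master activator of MHC class II genes, and NLRC5, its counterpart for MHC class I.

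RNA was read from transcript 3′ ends, with 6784393 to 8460722 reads per tumour in the 8 tumours, and every level below is a normalised read count (reads divided by the size factor of the tumour). Genes of the melanocyte lineage were present in all 8 tumours, with 7522, 6995, 8903 and 6322 normalised reads of Mlana, a melanosome antigen, in shCtrl tumours. The summed level of 19 melanocyte markers was 177802 to 215010 in shCtrl and 150819 to 174142 in shMdk tumours. Libraries stood apart in 2 ways. Gm42418, which lies across a ribosomal RNA repeat, took 3.17% of reads in shMdk tumour 1 and 1.08% to 1.56% in the other 7. Transcripts whose 3′ ends are rich in GC gave more reads in shCtrl tumours 1 and 2 (slopes of 0.17 and 0.13 log2 units per 10% GC) and in shMdk tumours 3 and 4 (0.08 and 0.18). The slopes lay between -0.11 and -0.01 in the other 4. The remaining tumour with a positive slope was in the anti-PD1 arm. Both groups thus held 2 tumours of each kind, and counts without the 5 tumours, which leave 2 against 2 under IgG2a, are given beside the main ones.

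Mdk (ENSMUSG00000027239.14, chromosome 2, 91929805 to 91932297, minus strand of GRCm38) fell in the shMdk tumours. The 4 controls had 601, 727, 959 and 1161 normalised reads of it and the 4 shMdk tumours 150.2, 203, 323 and 121. The groups did not overlap. The mean in shMdk tumours was 23.1% of the mean in shCtrl tumours, and 18.3% to 26.2% when any single tumour was left out (two-sided exact permutation test, p = 0.0286, the smallest that 70 arrangements allow). The log2 fold change was -2.16 ± 0.36 (adjusted p = 0.00428) by limma, the test used throughout unless another is named. Without the 5 tumours of positive GC slope the adjusted p was 0.0464 by limma and 0.0600 by edgeR's quasi-likelihood test. Of 15 genes for midkine, its relative pleiotrophin and their binding partners, Mdk was the only member that fell. Sdc3, which encodes syndecan-3, a heparan sulfate proteoglycan that binds these factors, was the only member that rose. Sdc3 had 46.2, 59.7, 59 and 72.9 in shCtrl tumours and 188, 137, 122 and 104 in shMdk tumours, again without overlap (log2 fold change 1.18 ± 0.20, adjusted p = 0.00428). The median log2 fold change of the 15 was 0.04.

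Across 14672 genes tested, 255 passed an adjusted p under 0.05 between the lines (1.74%), of which 239 were higher in shMdk tumours (1.63%) and 16 lower (0.109%). At an unadjusted p under 0.05 there were 1422. Of the genes that rose, 220 did so by at least 2-fold and 48 by at least 8-fold, and the median log2 fold change was 2.25. Of those that fell, 7 did so by at least 2-fold, with a median of -0.88. The median over all genes was -0.01. Of the 255, 247 had groups that did not overlap, against 611 genes higher (4.16%) and 283 lower (1.93%) without overlap among all genes tested. The number that passed was 160 without shCtrl tumour 3, 158 without shCtrl tumour 4, 136 without shMdk tumour 3 and 167 without shMdk tumour 1. The number lower was 7 without shCtrl tumour 3, 9 without shCtrl tumour 4 and 10 without shMdk tumour 3. The total was 74 without the 5 tumours of positive GC slope (47 of them higher, 0.32% of genes tested), 2 by edgeR without them, and 380 with the slope status as a covariate. With only the 8 IgG2a tumours in the fit the total was 171.

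**Figure D1:**
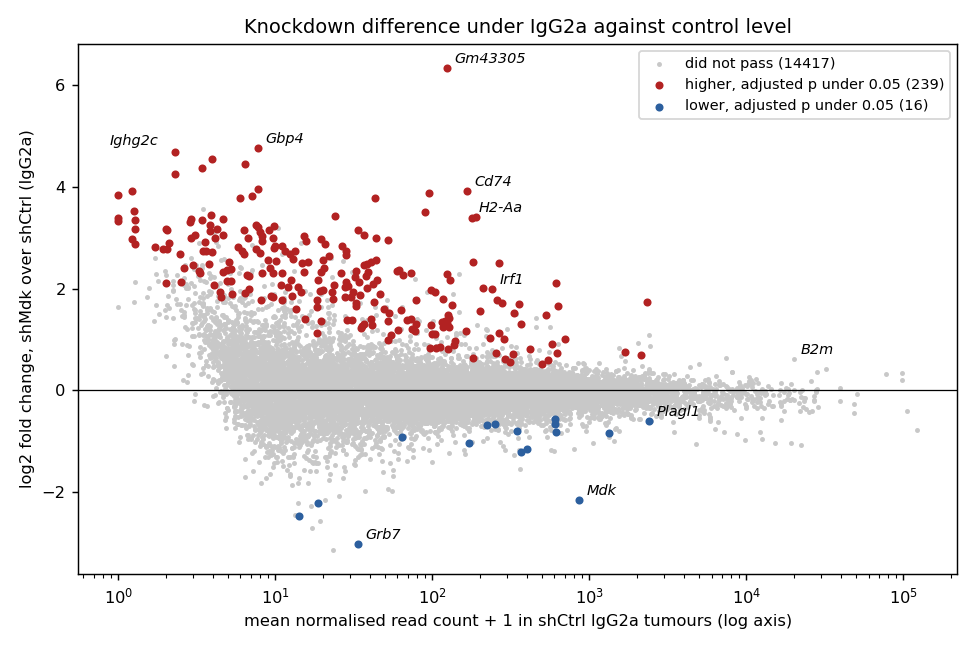
Log2 fold change of shMdk over shCtrl tumours under IgG2a (vertical axis) against the mean normalised read count plus 1 in shCtrl IgG2a tumours (horizontal log axis), 1 point a gene. Red points (239) are higher and blue points (16) lower at an adjusted p under 0.05, and most red points lie at low control levels.

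Most genes that rose were scarce in control tumours. Of 625 genes with a mean under 5 normalised reads in shCtrl tumours, 55 rose (8.8%), though a gene that scarce entered the test only if it was higher in another group. The share was 108 of 4412 genes between 5 and 50 reads, 66 of 6727 between 50 and 500 and 10 of 2674 between 500 and 5000. None of the 234 genes above 5000 passed in either direction, while 20 had an unadjusted p under 0.05, and edgeR called 0 and DESeq2 called 2 lower. The genes that fell lay higher, with 13 of 16 above 50 reads. Fold changes of low genes also had larger standard errors, with a median of 0.67 log2 units under 5 reads and 0.17 between 500 and 5000. Such an error holds both counting error and spread between tumours.

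The largest fitted rise belonged to Gm43305 (ENSMUSG00000105703.2, chromosome 14, 54292443 to 54297456, minus strand), a processed transcript with no known function, which like Casp12 was chosen for mention after its values were seen. It had 169, 114, 109 and 103 in shCtrl tumours and 8191, 11926, 8331 and 11726 in shMdk tumours (log2 fold change 6.33 ± 0.23, adjusted p = 1.72e-11). The 4 shMdk tumours lay within 1.5-fold of each other and far above any control. Casp12, a caspase gene of the inflammatory family, had 13.5, 16, 8.56 and 18.5 in shCtrl tumours and 146, 115, 138 and 88.3 in shMdk tumours (log2 fold change 3.04 ± 0.33, adjusted p = 0.000309). Peak1os, a transcript named for the strand opposite Peak1, had 0 reads in the 4 shCtrl tumours and 16.7, 5.46, 15.2 and 22.1 normalised reads in the shMdk group, whose mean was at least 19.6-fold above the limit that 3 reads over the control group set. These 3 genes kept their calls in each of the 8 fits that left out 1 tumour. Without the 5 tumours of positive GC slope, Gm43305 and Casp12 passed by limma (adjusted p = 0.0464 for Casp12). By edgeR without them Casp12 did not pass (0.0600). Peak1os fell below the filter on low values without the 5 tumours and was not tested there.

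**Figure D2:**
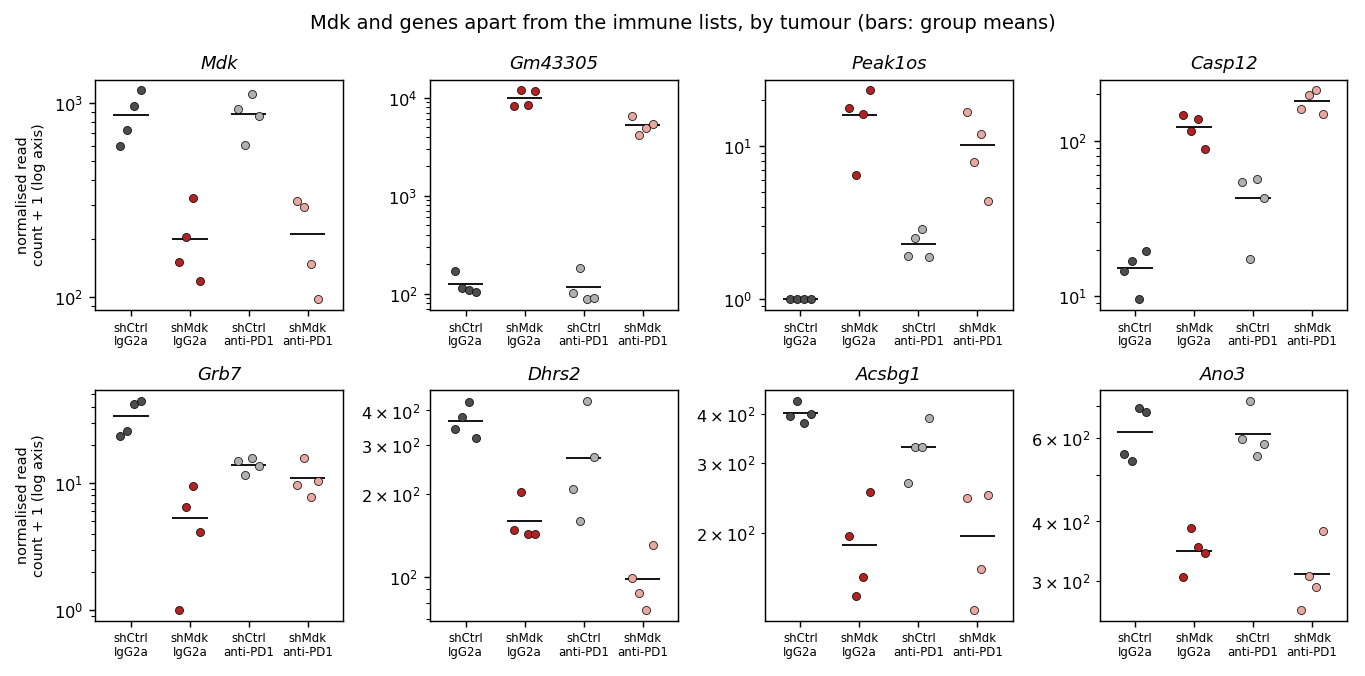
Normalised read count plus 1 (log axis) in each of the 16 tumours, by line and antibody, for Mdk and 7 other genes, with bars at group means. Gm43305, Peak1os and Casp12 are higher and Mdk, Grb7, Dhrs2, Acsbg1 and Ano3 lower in all 4 shMdk IgG2a tumours than in any shCtrl IgG2a tumour.

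The 16 genes that fell shared no list, and 2 of them belonged to any list (Mdk and Acsbg1). Grb7, an adaptor protein of receptor tyrosine kinases, fell most, from 22.5, 24.5, 40.9 and 43.4 normalised reads in shCtrl to 0, 5.46, 8.53 and 3.15 in shMdk tumours (log2 fold change -3.02 ± 0.54, adjusted p = 0.00614). Art4, a mono-ADP-ribosyltransferase that carries a red cell blood group, had 14.6, 19.2, 9.51 and 9.23 in shCtrl tumours and 1.11, 1.82, 0.948 and 2.10 in shMdk tumours (log2 fold change -2.47 ± 0.48, adjusted p = 0.0105). Both are low genes, and 7 of the 8 shMdk values lie under 6 normalised reads. At higher levels, Dhrs2, a gene of the short-chain dehydrogenase family, had 341, 377, 429 and 317 in shCtrl tumours and 147, 202, 141 and 142 in shMdk tumours (log2 fold change -1.21 ± 0.25, adjusted p = 0.0161). Acsbg1, an acyl-CoA synthetase for long-chain fatty acids, had 394, 431, 379 and 399 in shCtrl tumours and 195, 137, 154 and 253 in shMdk tumours (log2 fold change -1.15 ± 0.22, adjusted p = 0.00963). Ano3, a membrane protein of the anoctamin family, had 554, 535, 691 and 678 in shCtrl tumours and 305, 387, 352 and 342 in shMdk tumours (log2 fold change -0.82 ± 0.15, adjusted p = 0.00614). None of these 5 genes had a shMdk tumour within the control range. The others fell by less than 2.3 log2 units, among them Zfp469, which GENCODE annotates as a lincRNA despite its symbol (-2.21), the secreted lipid-mobilising protein gene Azgp1 (-1.04), the transcription factor genes Sox5 (-0.81) and Plagl1 (-0.60), Smo, the transducer of Hedgehog signals (-0.67), the arginine deiminase gene Padi2 (-0.66), the LIM domain gene Csrp2 (-0.57), Snapc5, a subunit of the factor for small nuclear RNA genes (-0.92), and the doublecortin domain gene Dcdc2a (-0.69). Fbln5, an elastic fibre protein gene named outside the rule, completed the 16 (-0.85) and was the 1 of them whose groups overlapped. Mdk, Grb7, Art4, Acsbg1, Ano3 and Csrp2 passed in all 8 fits that left out 1 tumour. Mdk, Grb7, Ano3, Azgp1 and Fbln5 passed without the 5 tumours of positive GC slope, and the other 11 did not. By edgeR, Azgp1, Sox5 and Fbln5 did not pass (adjusted p 0.0526, 0.0670 and 0.0502). Among those not named as passing every such fit the adjusted p reached 0.0644 for Dhrs2 without shMdk tumour 3, 0.0703 for Zfp469 without shMdk tumour 1, and 0.16 for Azgp1 without shMdk tumour 1. It reached 0.158 for Sox5 without shMdk tumour 4, 0.119 for Plagl1 without shMdk tumour 1, and 0.169 for Smo without shCtrl tumour 4. For Padi2, Snapc5, Dcdc2a and Fbln5 it reached 0.12, 0.125, 0.112 and 0.142, without shCtrl tumour 3, shCtrl tumour 3, shCtrl tumour 3 and shMdk tumour 1.

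Among the genes that rose, 90 of 239 belonged to 1 or more of the 44 lists of pathways and cell types, and the interferon pathway held many of them. None of the 13 genes for interferon receptors, their JAK kinases and their inhibitors passed in either direction (median log2 fold change 0.19), by limma, edgeR or DESeq2, while 4 had an unadjusted p under 0.05. Ifngr1, the ligand-binding chain of the interferon gamma receptor, had 138, 174, 119 and 124 in shCtrl tumours and 155, 137, 161 and 173 in shMdk tumours, with overlap (log2 fold change 0.19 ± 0.19, adjusted p = 0.884). Of 19 STAT and IRF family members and their partners, which act below the receptor, 7 rose and 0 fell (median 0.84). Irf1 had 249.9, 209.9, 272 and 227 in shCtrl tumours and 971, 815, 1602 and 632 in shMdk tumours (log2 fold change 1.98 ± 0.32, adjusted p = 0.00363). Irf8, a factor of macrophages, dendritic cells and B cells that interferon gamma also induces, had 54, 43.7, 24.7 and 26.8 in shCtrl tumours and 256, 116, 263 and 219 in shMdk tumours (log2 fold change 2.49 ± 0.32, adjusted p = 0.00104). In both genes the lowest shMdk tumour lay more than 2-fold above the highest shCtrl tumour. Ciita rose from 10.1, 6.39, 5.71 and 4.62 to 75.7, 36.4, 114 and 68.3 normalised reads (log2 fold change 3.21 ± 0.66, adjusted p = 0.0144), and Nlrc5, Irf5 and Batf2 rose by 1.35, 1.92 and 1.80 log2 units. The count of 7 was 4 without shCtrl tumour 2, shMdk tumour 1 or shMdk tumour 4, 3 without shCtrl tumour 4, 2 without shMdk tumour 3 and 1 without the 5 tumours of positive GC slope. Irf1 and Irf8 passed in all 8 fits that left out 1 tumour. The largest adjusted p was 0.0659 for Ciita, 0.157 for Nlrc5 and 0.132 for Batf2, each without shMdk tumour 3, and 0.0662 for Irf5 without shMdk tumour 1.

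The immunity-related and guanylate-binding GTPases, which attack vacuoles of intracellular pathogens and are classical targets of interferon gamma, were the group with the highest share of members that rose apart from MHC class II, with 12 of 16 higher and 0 lower (median 2.62). Gbp4 had 11.3, 6.39, 6.66 and 2.77 in shCtrl tumours and 191, 150.1, 403 and 119.8 in shMdk tumours (log2 fold change 4.76 ± 0.70, adjusted p = 0.00215). Iigp1 had 331, 103, 172 and 152 in shCtrl tumours and 2171, 1977, 2269 and 1170.0 in shMdk tumours (log2 fold change 3.40 ± 0.54, adjusted p = 0.00363). Gbp2 had 64.2, 27.7, 36.1 and 44.3 in shCtrl tumours and 309, 269, 635 and 234 in shMdk tumours (log2 fold change 2.99 ± 0.50, adjusted p = 0.00428). In these genes shMdk tumour 3 was the highest of the 8 tumours, and no shMdk tumour overlapped a control. Tgtp1, Gbp5, Ifi47 and Irgm1 rose by 4.24, 3.15, 1.72 and 1.32 log2 units. Members of these families are alike in sequence and can share reads, so single values are uncertain. The count was 7 without shMdk tumour 3, 0 without the 5 tumours of positive GC slope and 13 with the slope status as a covariate. Without shMdk tumour 3 the adjusted p was 0.0753 for Gbp5 and 0.104 for Irgm1.

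Promoter sequences are shown for genes of this group, for Irf1 and for MHC class II, to let the letters of known interferon and CIITA motifs be seen in place. The 5 windows were picked because they hold a match. Windows of Ifi47, Ubd and Psmb10, which also rose, held none of the motifs and are not shown. RefSeq promoters (GRCm38.p6, 250 bases before to 50 after the start, 300 in all) matched 10350 of the 14672 genes tested. Capitals mark 3 motifs searched on both strands. They are GAAANNGAA, the core of the interferon-stimulated response element (ISRE), TTCNNNGAA, the gamma-activated site (GAS) bound by STAT factors, which reads the same on both strands, and CTGATTGG, the Y box of MHC promoters. Gbp5 (chr3:142496684-142496983, plus strand) held 2 GAS matches and 1 ISRE match, Irgm1 (chr11:48871371-48871670, minus strand) held 2 ISRE matches that overlap by 3 bases, and Irf1 (chr11:53769764-53770063, plus strand) held 1 GAS match, 90 bases before the start. The table has a second window for Irf1 (chr11:53770223-53770522), which held no match. H2-Eb1 (chr17:34305617-34305916, plus strand) and H2-Aa (chr17:34287774-34288073, minus strand) each held the Y box, 62 and 51 bases before the start.
Gbp5: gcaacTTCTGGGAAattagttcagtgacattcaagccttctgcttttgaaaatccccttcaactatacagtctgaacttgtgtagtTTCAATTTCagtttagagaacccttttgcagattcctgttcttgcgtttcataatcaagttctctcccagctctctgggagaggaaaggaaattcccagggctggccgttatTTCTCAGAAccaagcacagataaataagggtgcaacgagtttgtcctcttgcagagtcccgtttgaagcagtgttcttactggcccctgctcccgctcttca
Irgm1: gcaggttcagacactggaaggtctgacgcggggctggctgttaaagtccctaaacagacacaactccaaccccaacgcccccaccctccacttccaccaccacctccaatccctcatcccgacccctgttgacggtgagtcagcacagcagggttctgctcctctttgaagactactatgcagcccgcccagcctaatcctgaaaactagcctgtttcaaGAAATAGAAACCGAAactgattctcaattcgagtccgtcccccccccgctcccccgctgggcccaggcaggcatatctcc
Irf1: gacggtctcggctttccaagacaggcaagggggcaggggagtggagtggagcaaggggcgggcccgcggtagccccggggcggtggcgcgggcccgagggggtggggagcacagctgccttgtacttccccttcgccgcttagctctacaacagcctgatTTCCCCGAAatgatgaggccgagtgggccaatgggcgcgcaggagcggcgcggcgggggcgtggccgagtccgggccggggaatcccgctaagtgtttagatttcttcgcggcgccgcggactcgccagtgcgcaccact
H2-Eb1: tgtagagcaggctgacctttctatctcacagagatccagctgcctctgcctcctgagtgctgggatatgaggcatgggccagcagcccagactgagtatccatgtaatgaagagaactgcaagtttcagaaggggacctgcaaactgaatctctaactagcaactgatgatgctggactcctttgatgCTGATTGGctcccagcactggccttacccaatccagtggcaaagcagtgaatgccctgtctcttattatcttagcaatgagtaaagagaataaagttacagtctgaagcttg
H2-Aa: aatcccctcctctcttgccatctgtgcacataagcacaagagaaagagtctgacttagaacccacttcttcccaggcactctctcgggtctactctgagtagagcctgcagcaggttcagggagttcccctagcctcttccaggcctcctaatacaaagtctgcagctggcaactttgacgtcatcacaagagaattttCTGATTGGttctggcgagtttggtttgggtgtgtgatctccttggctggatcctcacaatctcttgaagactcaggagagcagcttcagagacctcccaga

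The ISRE letters stood in 922 of the 10350 promoters (8.91%), the GAS letters in 863 (8.34%) and the Y box in 676 (6.53%). Among the genes that rose, 174 had a promoter in the table, of which 49 held the ISRE letters (28.2%), 24 the GAS letters (13.8%) and 9 the Y box (5.17%). Among the genes that fell, 12 had a promoter, of which 3 held the ISRE letters (25%), 2 the GAS letters (16.7%) and 0 the Y box, so the ISRE and GAS shares lay near those of the genes that rose, from few promoters. The GTPase list held the ISRE letters in 9 of 10 promoters and the GAS letters in 6. The MHC class II list held the Y box in 3 of 8 and the ISRE letters in 1. These are matches of letters in a fixed window, not measured binding.

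Of 44 antiviral effectors known as targets of type I interferons, 7 rose and 0 fell (median 0.63). Oas3, a sensor of double-stranded RNA, had 32.6, 12.8, 21.9 and 9.23 in shCtrl tumours and 73.4, 76.4, 155 and 143 in shMdk tumours (log2 fold change 2.55 ± 0.39, adjusted p = 0.00264). Ifit3, an antiviral RNA-binding protein, had 514, 487, 639 and 489 in shCtrl tumours and 1357, 1409.7, 2358 and 1044 in shMdk tumours (log2 fold change 1.48 ± 0.31, adjusted p = 0.0159). Zbp1, Oasl2 and Cmpk2 rose by 2.97, 1.48 and 1.36 log2 units. The antiviral genes Ifit1, Rsad2 and Isg15, named here after their values were seen, had log2 fold changes of -0.01, 0.36 and 0.32 and did not pass. The count of 7 was 4 without shCtrl tumour 3, 3 without shCtrl tumour 4, 2 without shMdk tumour 3 and 1 without the 5 tumours of positive GC slope. Oas3 and Cmpk2 passed in all 8 fits that left out 1 tumour. The adjusted p reached 0.0748 for Ifit3, 0.0639 for Zbp1 and 0.0591 for Oasl2 without shMdk tumour 3.

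MHC class II presentation, which displays peptides from engulfed proteins to CD4+ T cells, rose in 9 of 10 members (median 3.39, or 3.41 with H2-Eb2 set at the bound given below). H2-Aa, the alpha chain of the I-A molecule, had 231, 168, 176 and 134 in shCtrl tumours and 2157, 1262, 3317 and 1246 in shMdk tumours (log2 fold change 3.39 ± 0.48, adjusted p = 0.00199). H2-DMa, the chaperone that exchanges the invariant chain peptide, had 33.8, 26.6, 17.1 and 14.8 in shCtrl tumours and 296, 146, 368 and 231 in shMdk tumours (log2 fold change 3.43 ± 0.50, adjusted p = 0.00208). Cd74, the invariant chain, had 388, 133, 81.8 and 59.1 in shCtrl tumours and 2032, 957, 2636 and 2619.7 in shMdk tumours (log2 fold change 3.92 ± 0.70, adjusted p = 0.00614). These 3 genes had no shMdk tumour within the control range, and shMdk tumour 2 was the lowest shMdk tumour for H2-DMa and Cd74. H2-Ab1 and H2-Eb1 rose by 3.50 and 3.89 log2 units. H2-Eb2 had 0 reads in the 4 shCtrl tumours and was at least 12.9-fold higher in shMdk tumours, against the limit of 3 reads over the group. The count of 9 lay between 7 and 9 when 1 tumour was left out and was 0 without the 5 tumours of positive GC slope. With slope status as a covariate it was 9.

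The MHC class I pathway, which displays peptides from within the cell to CD8+ T cells, rose in 6 of 22 members and fell in 0 (median 0.91). Tap1, the peptide transporter into the endoplasmic reticulum, had 353, 218, 247 and 206 in shCtrl tumours and 829, 727, 1064 and 868 in shMdk tumours (log2 fold change 1.78 ± 0.28, adjusted p = 0.00363). Psmb8, a catalytic subunit of the immunoproteasome, had 208, 149, 314 and 162 in shCtrl tumours and 1369, 1012, 725 and 424 in shMdk tumours (log2 fold change 2.01 ± 0.36, adjusted p = 0.00624). Psmb10, Tapbp, Erap1 and Psme1, which cleave, load or trim peptides or activate the proteasome, rose by 1.70, 1.65, 1.20 and 0.75. The class I heavy chain gene H2-K1 did not overlap between the groups, at 2215, 2135, 2746 and 2515 in shCtrl tumours and 4598, 5329, 6506 and 4209 in shMdk tumours, and missed the threshold by limma (log2 fold change 1.09 ± 0.27, adjusted p = 0.0503). It passed by edgeR (adjusted p = 0.0343), by DESeq2 (0.00237) and with slope status as a covariate (0.0359). By limma the adjusted p of H2-K1 was 0.363 without the 5 tumours of positive GC slope and 0.181 without shMdk tumour 3. B2m, the light chain, had 18739.8, 17924, 23200.3 and 20082 in shCtrl tumours and 24258, 34303, 34889.8 and 29488 in shMdk tumours (log2 fold change 0.61 ± 0.23, adjusted p = 0.288). Of 14 genes of the constitutive proteasome core, 0 passed (median 0.06), and 0 had an unadjusted p under 0.05 or passed by edgeR or DESeq2. The class I count was 4 to 7 when 1 tumour was left out, 3 without the 5 tumours of positive GC slope and 9 with slope status as a covariate. Without shMdk tumour 3 the adjusted p was 0.0644 for Tapbp and 0.0879 for Psme1.

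**Figure D3:**
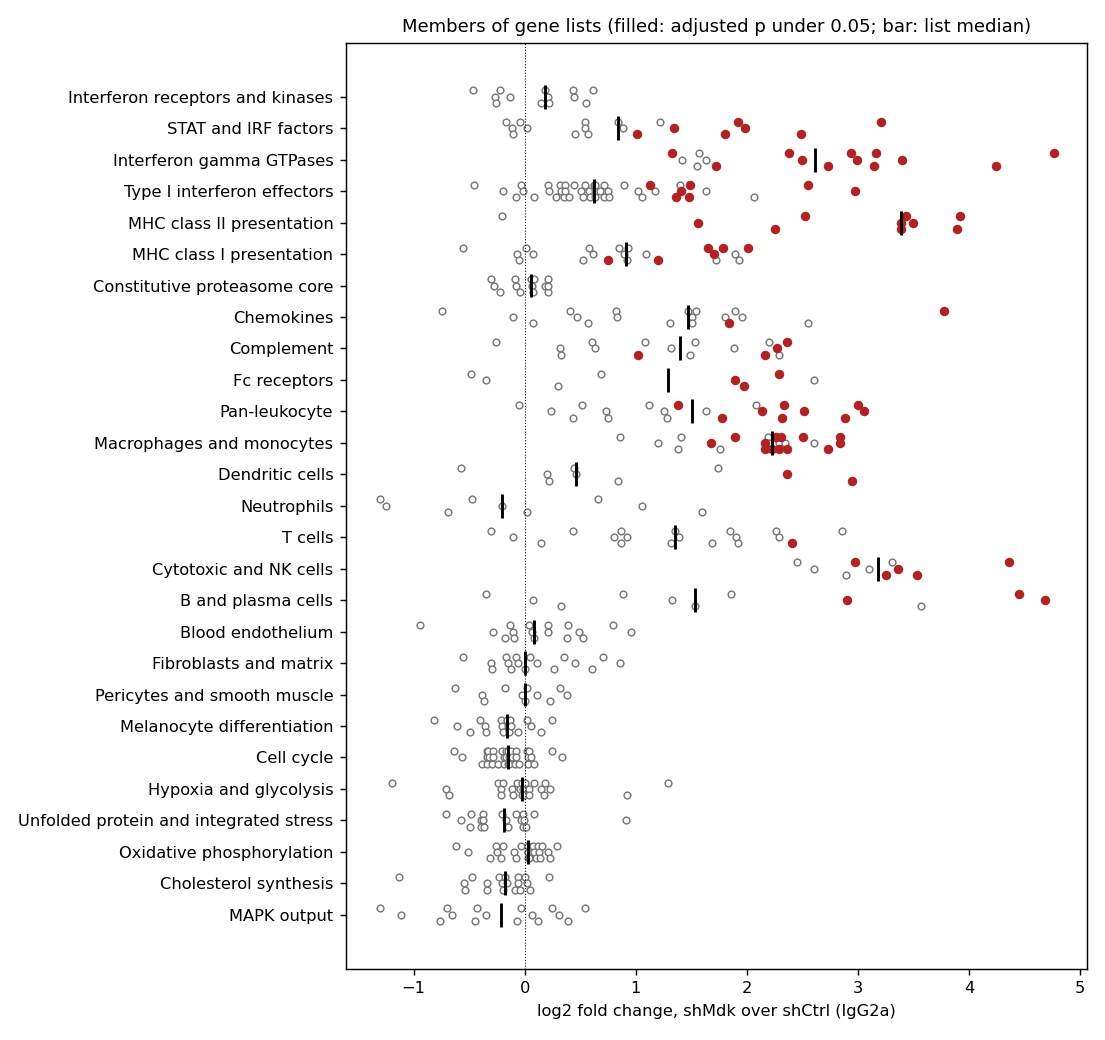
Log2 fold change of shMdk over shCtrl tumours under IgG2a (horizontal axis) for each tested member of 27 lists, with filled points for an adjusted p under 0.05 and a bar at the list median. Members of the GTPase and MHC class II lists lie mostly to the right of 0 and filled, while the lists of interferon receptors, constitutive proteasome, cell cycle, melanocyte differentiation and stroma hold open points around 0.

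Many markers of white blood cells rose in shMdk tumours, and in bulk tumour RNA more cells of a type and more RNA per cell cannot be told apart. Of 20 pan-leukocyte genes, 9 rose and 0 fell (median 1.51), and their summed level was 3225 to 3594 in shCtrl and 3966 to 6038 in shMdk tumours. Ptprc, the CD45 antigen of all leukocytes, had 34.9, 27.7, 6.66 and 9.23 in shCtrl tumours and 177, 87.3, 118 and 126 in shMdk tumours (log2 fold change 2.88 ± 0.51, adjusted p = 0.00614). Cd52, a surface glycoprotein of lymphocytes and monocytes, had 50.7, 52.2, 11.4 and 29.5 in shCtrl tumours and 385, 176, 237 and 302 in shMdk tumours (log2 fold change 3.05 ± 0.47, adjusted p = 0.00333). Both genes were lowest in shMdk tumour 2 and highest in shMdk tumour 1 among the 4 shMdk tumours, and the groups did not overlap. The count of 9 was 9 to 11 when 1 tumour was left out and 4 without the 5 tumours of positive GC slope. Between the lines these summed levels were higher where the interferon and MHC genes above were higher. Within the shMdk tumours the order differed for the GTPase list, whose sum was lowest in tumour 4 (5156) and highest in tumour 3 (10304). The pan-leukocyte sums there were 6038 and 5319. The MHC class II sum was lowest in shMdk tumour 2 (5678), like the pan-leukocyte sum (3966), and highest in shMdk tumour 3 (12641). Within the shCtrl tumours the GTPase sums (2035, 1022, 1663 and 1235) and the pan-leukocyte sums (3594, 3225, 3443 and 3439) had the same order. The sums of macrophage and monocyte markers there (1488, 1909, 903 and 864) had another order. They were highest in shCtrl tumour 2, where the GTPase sum was lowest. The part of leukocyte markers in the interferon and MHC results was not tested.

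Among leukocyte classes, macrophages and monocytes held the most genes that rose, with 13 of 23 higher and 0 lower (median 2.23). The summed level of these markers was 864 to 1909 in shCtrl and 2945 to 6474 in shMdk tumours. Ly6c2, a marker of inflammatory monocytes, had 12.4, 13.9, 4.76 and 4.62 in shCtrl tumours and 55.6, 48.2, 108 and 54.7 in shMdk tumours (log2 fold change 2.84 ± 0.55, adjusted p = 0.0105). Tyrobp, the signalling adaptor of many myeloid receptors, rose by 2.17, Cd68, a lysosomal protein of macrophages, by 1.68, and the scavenger receptor gene Msr1 by 2.23. Adgre1, which encodes the macrophage marker F4/80, had 13.5, 10.7, 7.61 and 16.6 in shCtrl tumours and 112, 30.0, 59.7 and 77.8 in shMdk tumours without overlap but did not pass by limma (log2 fold change 2.34 ± 0.82, adjusted p = 0.246). It passed by edgeR (adjusted p = 0.0437) and by DESeq2 (0.000944). By limma the adjusted p of Adgre1 was 0.508 without the 5 tumours of positive GC slope and 0.525 without shMdk tumour 1. Among dendritic cell markers 2 of 9 rose, and Itgax, the integrin CD11c, had 9.01, 7.46, 7.61 and 4.62 in shCtrl tumours and 81.2, 36.4, 44.6 and 101 in shMdk tumours (log2 fold change 2.94 ± 0.48, adjusted p = 0.00428). The dendritic cell count was 1 without shCtrl tumour 1, 2 or 3 or shMdk tumour 1, 3 or 4. Of 9 neutrophil markers 0 passed (median -0.21), with a summed level of 96.1 to 161 in shCtrl and 60.7 to 151 in shMdk tumours, and 0 passed by edgeR, by DESeq2 or at an unadjusted p under 0.05. The macrophage count was 8 without shCtrl tumour 3 or 4, 7 without shMdk tumour 1 or 3 and 0 without the 5 tumours of positive GC slope. It was 16 with slope status as a covariate. Ly6c2 had an adjusted p of 0.0524 without shMdk tumour 3.

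Cytotoxic lymphocyte genes were scarce and rose in 5 of 10 members (median 3.18). Of 23 listed genes, 10 were tested. A member with a mean under 5 in shCtrl tumours entered the test only if another group was higher. The filter thus leans the share and the median upward, here and in other lists of scarce genes. Gzmc, a granzyme of activated killer cells, had 6.75, 1.07, 0.951 and 0.923 in shCtrl tumours and 40.1, 39.1, 47.4 and 134 in shMdk tumours (log2 fold change 4.36 ± 0.63, adjusted p = 0.00208). Nkg7, a granule protein of killer cells, had 6.75, 1.07, 0.951 and 0.923 in shCtrl tumours and 28.9, 23.6, 26.5 and 31.5 in shMdk tumours (log2 fold change 3.36 ± 0.63, adjusted p = 0.0085). Prf1, which encodes perforin, had 11.3, 0, 0 and 0 in shCtrl tumours and 15.6, 15.5, 22.8 and 14.7 in shMdk tumours (log2 fold change 3.26 ± 0.69, adjusted p = 0.0183). For these 3 genes shCtrl tumour 1 was the highest control. The T cell list had 1 of 19 members higher (median 1.36), Il2rb, a receptor chain for interleukin 2 and 15 that NK cells share (log2 fold change 2.41 ± 0.54, adjusted p = 0.0268). Cd8a had 2.25, 0, 0 and 1.85 in shCtrl tumours and 15.6, 4.55, 16.1 and 2.10 in shMdk tumours, with overlap (log2 fold change 2.26 ± 0.77, adjusted p = 0.223). The cytotoxic count was 8 without shCtrl tumour 1, 3 without shMdk tumour 3 and 2 without the 5 tumours of positive GC slope. Prf1 had an adjusted p of 0.0751 without shCtrl tumour 3 and Il2rb 0.112 without shMdk tumour 3, and the T cell count was 0 without shCtrl tumour 3 or 4 or shMdk tumour 1 or 3. By edgeR's quasi-likelihood test on the recovered reads, Prf1 did not pass (adjusted p = 0.164).

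Of B and plasma cell genes, 3 of 11 rose (median 1.54). Of 22 listed, 11 were tested, and the same limit of the filter holds for scarce members such as Ighg2c. Ighg2c, a heavy chain constant region of IgG, had 1.13, 2.13, 1.90 and 0 in shCtrl tumours and 52.3, 22.7, 68.3 and 95.7 in shMdk tumours (log2 fold change 4.69 ± 0.56, adjusted p = 0.00056). Igkc, the kappa light chain, had 13.5, 6.39, 0.951 and 0.923 in shCtrl tumours and 115, 64.6, 80.6 and 146 in shMdk tumours (log2 fold change 4.45 ± 1.03, adjusted p = 0.033). In both genes every shMdk tumour lay above every control. Cd22, a B cell receptor inhibitor, rose by 2.90. The list's count was 1 in the fits without shCtrl tumour 2, 3 or 4 or shMdk tumour 1, 3 or 4, and 1 without the 5 tumours of positive GC slope. Igkc had an adjusted p of 0.12 without shCtrl tumour 3 and Cd22 0.142 without shMdk tumour 1. By edgeR both had an adjusted p of 0.0534.

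**Figure D4:**
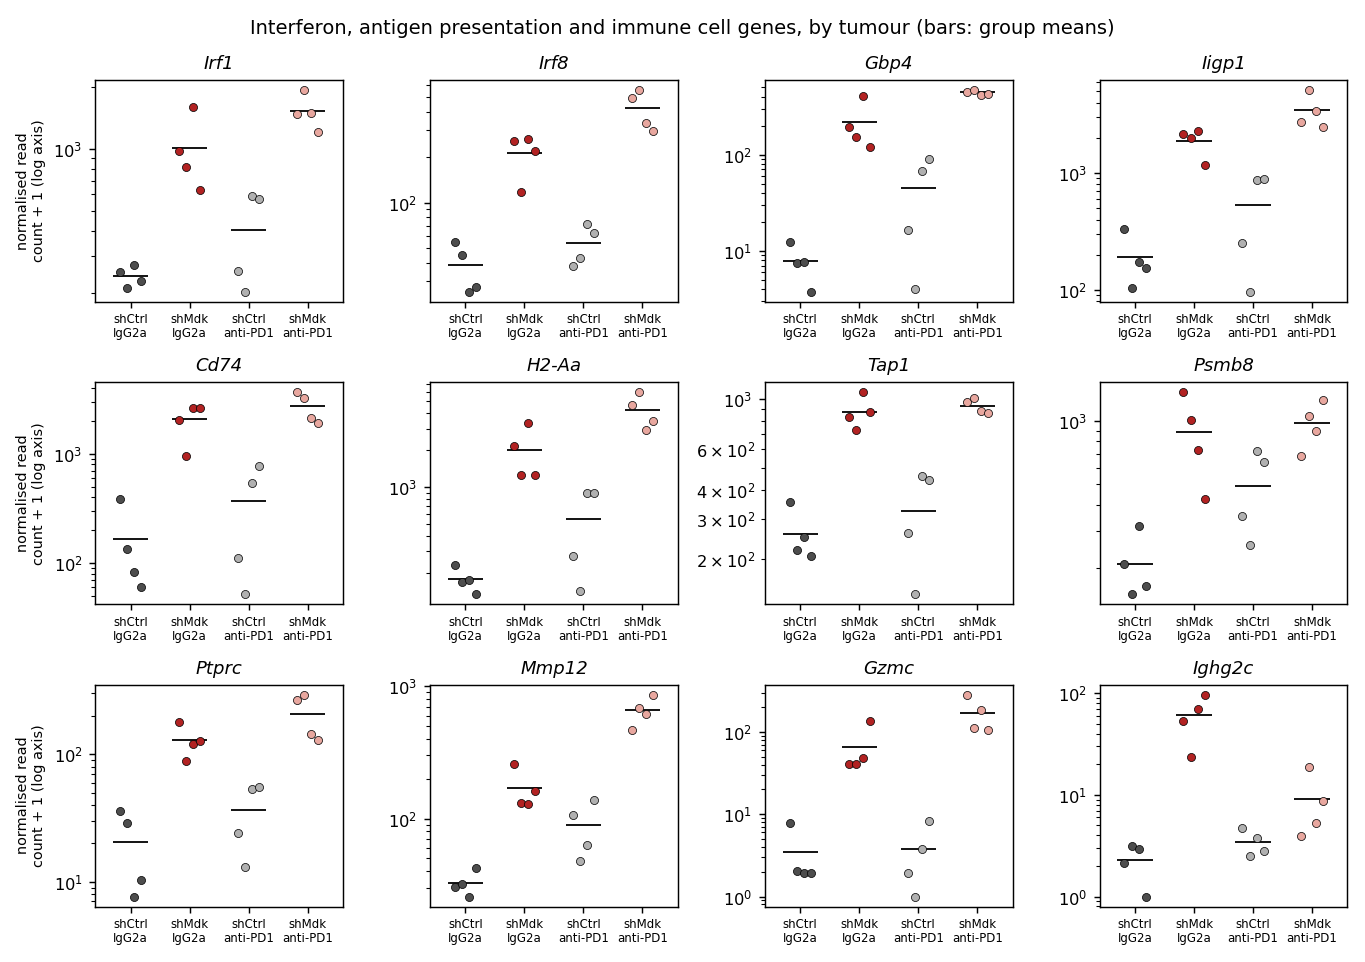
Normalised read count plus 1 (log axis) in each of the 16 tumours, by line and antibody, for 12 genes of interferon response, antigen presentation and immune cells, with bars at group means. In all 12 panels the 4 shMdk IgG2a tumours lie above the 4 shCtrl IgG2a tumours.

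A few genes for signals between immune cells rose. Of 19 chemokine genes, 2 rose and 0 fell (median 1.47). Cxcl9, an interferon gamma target that attracts T cells, had 108, 23.4, 11.4 and 24.9 in shCtrl tumours and 382, 274, 633 and 452 in shMdk tumours (log2 fold change 3.78 ± 0.75, adjusted p = 0.0118), and Ccl4, an attractant of monocytes and T cells, had 10.1, 11.7, 5.71 and 7.38 in shCtrl tumours and 23.4, 25.5, 49.3 and 38.9 in shMdk tumours (log2 fold change 1.84 ± 0.32, adjusted p = 0.00575). Of 9 chemokine receptors only Ccr2, the monocyte receptor for CCL2, rose (log2 fold change 2.73 ± 0.64, adjusted p = 0.0342). Of 14 checkpoint genes only Vsir, the inhibitory receptor VISTA, rose (log2 fold change 1.84 ± 0.45, adjusted p = 0.0443). Cd274, which encodes PD-L1, had 368, 107, 97 and 76.6 in shCtrl tumours and 91.2, 212, 256 and 388 in shMdk tumours with overlap (log2 fold change 0.68 ± 0.45, adjusted p = 0.747). Complement genes rose in 4 of 16 members (C1qb, C1qc, C3ar1 and C4b) and Fc receptor genes in 3 of 8. Fcgr4, a receptor that binds IgG2a, had 179, 79.9, 66.6 and 61.8 in shCtrl tumours and 452, 173, 392 and 478 in shMdk tumours (log2 fold change 1.98 ± 0.40, adjusted p = 0.0123), and shMdk tumour 2 lay within the control range. Without the 5 tumours of positive GC slope, these 5 lists held 0, 0, 0, 1 and 0 members higher. With slope status as a covariate they held 7, 1, 3, 6 and 4, and by DESeq2 5, 3, 3, 7 and 4. Single tumours moved these small counts. Chemokines had 4 members higher without shCtrl tumour 1 or shMdk tumour 2 and 1 without shMdk tumour 3, complement had 2 without shCtrl tumour 3 or 4 or shMdk tumour 1, 3 or 4, and Fc receptors had 1 without shCtrl tumour 4. Ccr2 lost its call in 7 of the 8 fits that left out 1 tumour. The chemokine receptor count was 0 without shCtrl tumour 1, 3 or 4 or shMdk tumour 1, 2 or 3. Without shMdk tumour 3 the adjusted p was 0.054 for Cxcl9, 0.132 for Ccr2 and 0.052 for Fcgr4. It reached 0.137 for C1qb without shCtrl tumour 4 and 0.151 for C4b without shCtrl tumour 2. Vsir reached 0.164 without shCtrl tumour 3, and Ccl4 passed in all 8 fits.

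The tumour cell programmes and the stroma gave few or no calls under IgG2a. None of 35 cell cycle genes passed (median -0.15), and Mki67, a marker of dividing cells, had 2829.9, 2436, 1651 and 1729.8 in shCtrl tumours and 1453, 2038, 1746 and 2499.9 in shMdk tumours (log2 fold change -0.15 ± 0.20, adjusted p = 0.922). Of 19 melanocyte genes 0 passed, with 4 of 19 log2 fold changes above 0 (median -0.16) and summed levels that did not overlap between the lines, as given above. Mitf, the lineage factor, had 14001, 12124, 12221 and 9353 in shCtrl tumours and 9726, 11201, 13009 and 11714 in shMdk tumours (log2 fold change -0.06 ± 0.18, adjusted p = 0.977). No member passed among 25 genes of hypoxia and glycolysis (median -0.02), 20 of the unfolded protein response (-0.19), 25 of oxidative phosphorylation (0.03), 19 of cholesterol synthesis (-0.18), 13 p53 targets (0.03), 16 genes of MAPK output (-0.21), 17 of blood endothelium (0.09), 17 of fibroblasts (0.00) and 11 of pericytes (0.00). At an unadjusted p under 0.05 these lists held 0 cell cycle, 0 melanocyte, 2 hypoxia, 3 unfolded protein response, 1 oxidative phosphorylation, 1 cholesterol, 1 p53, 4 MAPK, 1 endothelial, 0 fibroblast and 1 pericyte genes. edgeR called 0 members of them, and DESeq2 called 4 lower, all of the MAPK list. A median near 0 with no call does not show that these genes were alike. Of the 16 MAPK genes, 3 were lower and 0 higher without overlap, against 1.93% lower among all genes. Spred2 had 49.5, 60.7, 90.3 and 75.7 in shCtrl tumours and 22.3, 33.7, 26.5 and 44.2 in shMdk tumours, without overlap. Its adjusted p was 0.0706 by limma, 0.0733 by edgeR and 0.0138 by DESeq2. Myc, a driver of growth, had 50.7, 28.8, 104 and 116 in shCtrl tumours and 17.8, 39.1, 19 and 32.6 in shMdk tumours, with overlap, and did not pass by limma (log2 fold change -1.31 ± 0.41, adjusted p = 0.163) or edgeR (0.103), while DESeq2 gave an adjusted p of 0.0236. From the list of dedifferentiated melanoma genes 2 of 14 rose, the receptor tyrosine kinase gene Axl, at 496, 301, 271 and 256 in shCtrl tumours and 901, 516, 1216 and 1230.0 in shMdk tumours (log2 fold change 1.51 ± 0.30, adjusted p = 0.0106), and the matrix protein gene Tgfbi (log2 fold change 2.67 ± 0.48, adjusted p = 0.00614), both of which macrophages also make. Axl reached an adjusted p of 0.0531 without shMdk tumour 3. Red blood cell genes varied widely within both groups, with a summed level of 5308 to 123923 in shCtrl and 7809 to 32285 in shMdk tumours.

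The 4 shMdk tumours did not contribute alike. Of the 239 genes that rose, shMdk tumour 3 was the highest shMdk tumour for 88, tumour 1 for 79, tumour 4 for 61 and tumour 2 for 11. Tumour 2 was the lowest of the 4 for 147. Among controls, shCtrl tumour 1 was the highest for 116, tumour 2 for 67, tumour 4 for 33 and tumour 3 for 23. Mdk was lowest in shMdk tumour 4 and highest in shMdk tumour 3.

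Some genes that rose lay near each other in the genome, often with genes between them that did not pass. With neighbours joined across gaps of up to 500 kb, 53 of the 239 fell into 9 clusters of at least 4 genes. The largest, on chromosome 17 from 33915899 to 35188439, runs from Tapbp to Lst1 through the MHC and held 13 of the 69 tested genes between those ends. The Ms4a cluster on chromosome 19 (10839727 to 11531256) held 7 of 13, the Ifi200 cluster on chromosome 1 (173468485 to 173942672) 6 of 10, and the GTPase cluster on chromosome 11 from Irgm1 to Ifi47 (48861968 to 49096974) 6 of 9. A cluster on chromosome 5 (104935057 to 105139586) held all 4 of its tested genes, Abcg3, Gbp8, Gbp9 and Gbp4. The cluster from Fcgr4 to Slamf7 on chromosome 1 held 5 of 27. The ends of each cluster were set by genes that rose, so these shares describe the clusters and test nothing. How many of 239 genes taken at random from those tested would fall into clusters was not determined, so the 53 has no baseline.

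The same contrast was made in the 8 tumours treated with anti-PD1, which share no tumour with the comparison above but share its estimate of spread. There 870 genes passed (5.93%), 724 higher (4.93%) and 146 lower (0.995%). Of the 255 genes that passed under IgG2a, 220 passed under both antibodies, all in the same direction (214 higher and 6 lower), which is 86.3% of the IgG2a calls and 25.3% of the anti-PD1 calls. The median log2 fold change under anti-PD1 was 2.25 for the 239 genes higher under IgG2a, -0.63 for the 16 lower and -0.02 over all genes. Gm43305 had 101, 182, 86.5 and 89.9 in the shCtrl group and 6577, 4180.4, 4914 and 5348 in the shMdk group under anti-PD1. The 35 genes that passed under IgG2a alone included 10 of the 16 that fell. Under anti-PD1 the log2 fold change was -0.40 ± 0.54 (adjusted p = 0.784) for Grb7, -0.21 ± 0.47 (adjusted p = 0.887) for Zfp469 and 1.18 ± 0.56 (adjusted p = 0.281) for Ighg2c.

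**Figure D5:**
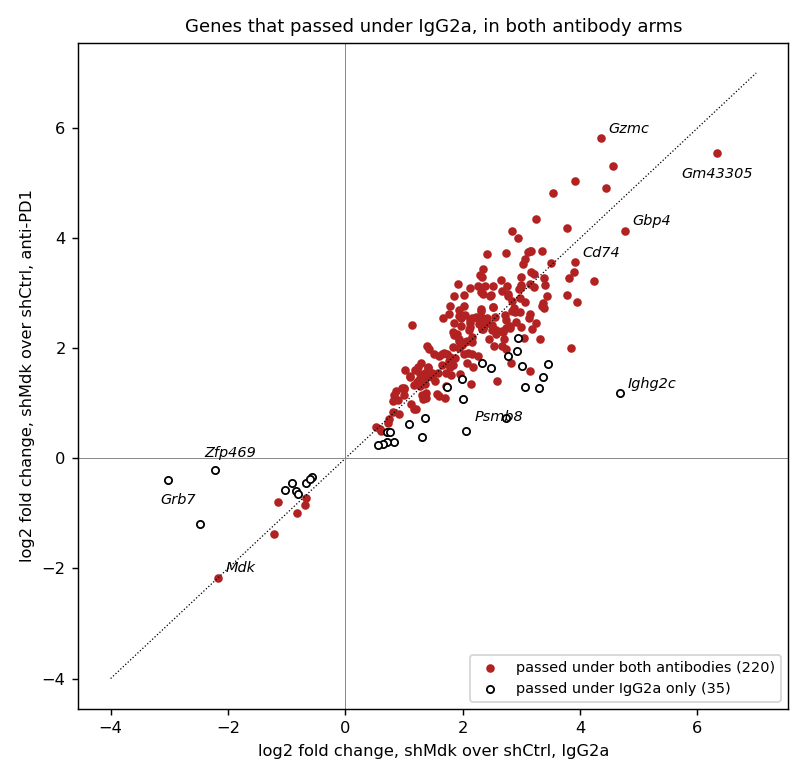
Log2 fold change of shMdk over shCtrl tumours under anti-PD1 (vertical axis) against the same under IgG2a (horizontal axis) for the 255 genes that passed under IgG2a, with a dotted line of equal change. Filled points (220) also passed under anti-PD1, and open points (35), such as Grb7 and Ighg2c, did not.

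A gene that passed under 1 antibody and not the other was not shown to differ between them. The difference itself passed for 0 of 14672 genes (0%), by limma, by edgeR and by DESeq2, and an unadjusted p under 0.05 was reached by 506 (3.45%). The smallest adjusted p was 0.9998. The 5 genes with the smallest p were Stra6l, Ighg2c, Calr4, Cd163 and Slfn4. Cd163, a scavenger receptor of macrophages, had 6.75, 8.53, 1.90 and 4.62 in shCtrl tumours and 0, 2.73, 1.90 and 0 in shMdk tumours under IgG2a and 1.84, 0, 2.79 and 2.70 in the shCtrl group and 18.5, 15.7, 3.39 and 20.3 in the shMdk group under anti-PD1 (difference of log2 fold changes 4.09 ± 0.95, unadjusted p = 0.00047). For Ighg2c the difference was -3.50 ± 0.79 (unadjusted p = 0.000373). Some lists had other counts in the 2 arms, a contrast that was not tested for lists. Chemokines had 2 of 19 members higher under IgG2a and 15 under anti-PD1, fibroblast genes 0 and 9 of 17, and macrophage genes 13 and 21 of 23, while MHC class II had 9 of 10 in both.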

How the data were processed

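Total RNA of 500 ng per tumour (mean RNA integrity number 8.6, range 5.8 to 9.2) was made into stranded, poly(A)-primed 3′ end libraries (QuantSeq) and read on a NextSeq 550 instrument, per the labels' protocols. DESeq2 and HTSeq, with TopHat2 (2.0.10) and Bowtie (1.0.0) for alignment tools, SAMtools (0.1.19) and FastQC (0.11.0), are named in the submitters' processing notes, which give GRCm38 (mm10) as the build. The deposited table holds a normalised signal: its values equal the authors' read counts divided by DESeq2 size factors, which were recomputed from the recovered reads. Of its values, 100% of values were whole multiples of 1 read within 0.001. Columns left unused numbered 0.

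The test was limma 3.58.1 (R 4.3.3) on log2(value + 1), with all 16 tumours, 12 residual degrees of freedom and 14672 of 16094 genes at a mean of at least 5. Benjamini-Hochberg adjusted p-values used a threshold of 0.05. Log2 fold changes carry standard errors (n = 4 tumours per group) and understate low genes. The labels describe separate tumours. edgeR 4.0.16, DESeq2 1.42.0, TMM scaling, other pseudocounts and filters, and left-out tumours were alternatives. A limit for 0 reads is 3 reads and covers counting error only. GC content is that of the last 300 bases of the longest GENCODE vM21 transcript (14621 of 14672 genes).

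The members and lists were chosen with earlier results of these data known, and list counts are no independent evidence. Named genes were Mdk, every gene that fell and the 15 that rose most among those without overlap and with a regular symbol, up to 6 passing members of each list (or the 2 with the largest change), a fixed set, and the 5 smallest p of the difference; a few of these are not reported here. Coordinates are from GENCODE vM21 (GRCm38), which placed all 255 called genes. The covariate fit and edgeR without the 5 tumours were chosen after seeing the data.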

Additional observations from a re-analysis of the deposited data

Results flagged for a closer look

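In 16 of the 192 gene and group pairs examined (96 genes), 1 tumour lay far from the other 3 of its group, with a gap beyond Dixon's 95% critical share of the group's range. For independent, normally distributed values chance gives about 1 in 20. Counts near 0 and genes of a shared cell type need not meet this, so the 16 pairs cannot be set against that rate. Of the 16, 9 were shCtrl tumour 1 at the high end. It had 6.75 normalised reads of Gzmc and 6.75 of Nkg7, where the next control had 1.07 of each, and 11.3 of Prf1, where the other 3 controls had 0. It also had 108 of Cxcl9 (next 24.9), 368 of Cd274 (next 106.6), 179 of Fcgr4 (next 79.9) and 36.0 of Zbp1 (next 14.9). Its Gm43305 was 169 (next 114) and its Zfp469 29.3 (next 14.9). In the same tumour the summed level of cytotoxic and NK cell markers was 66.4, and the macrophage marker sum of 1488 lay within the control range of 864 to 1909. Leaving this tumour out raised the count of cytotoxic genes that passed from 5 to 8.

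Among shMdk tumours, Gzmc was 134 in tumour 4 (next 47.4), Prf1 22.8 and Ly6c2 108 in tumour 3 (next 15.6 and 55.6), and Dhrs2 202 in tumour 2 (next 147). C4b was low in shMdk tumour 2, at 316, and Dcdc2a in shMdk tumour 4, at 117 (next 142). Csrp2 was 639 in shCtrl tumour 2 (next 591).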

How the results depend on the processing

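Of 107 genes followed that passed, 45 lost the call when some single tumour was left out and 80 when the 5 tumours of positive GC slope were, which leaves 2 against 2 tumours; 0 reversed. The 255 calls were 136 to 271 when 1 tumour was left out (126 to 249 higher, 7 to 24 lower), 449 by DESeq2 (390 higher, 59 lower), 74 without the 5 tumours (47 higher, 27 lower; 48 of the 74 are among the 255), and 2 by edgeR without them (2 higher, 0 lower). With only the 8 IgG2a tumours in the fit 171 genes passed (166 higher, 5 lower), and 158 of them are among the 255. With slope status as a covariate 380 passed (338 higher, 42 lower). Without the 5 tumours, edgeR gave Mdk a log2 fold change of -2.58 (adjusted p = 0.0600). Under anti-PD1, DESeq2 called 1310 genes against 870. The difference between antibodies passed for 0 genes under the 19 alternatives that could give it (the fit of 8 IgG2a tumours cannot). The other settings gave 214 to 270 calls under IgG2a. Causes of these shifts, the smaller number of tumours among them, were not tested. Genes with a mean under 5 normalised reads in shCtrl tumours had a median standard error of 0.67 log2 units. Counting error and spread between tumours both enter it and were not separated. No paired analysis was possible because the labels give the tumours no replicate numbers.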

Other observations

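Of the 239 genes higher in shMdk tumours under IgG2a, 149 belonged to none of the lists, and the genes in this paragraph were chosen from them, or from the small lists, after their values were seen. Lpl, the lipase that releases fatty acids from lipoproteins, had 87.8, 127, 96.1 and 98.8 in shCtrl tumours and 448, 303, 345 and 488 in shMdk tumours (log2 fold change 1.93 ± 0.36, adjusted p = 0.0085), and Cd36, a fatty acid transporter and scavenger receptor, rose by 1.77 ± 0.39. Nr1h3, the oxysterol receptor LXR alpha, and Pltp, the phospholipid transfer protein, rose by 1.40 ± 0.31 and 2.02 ± 0.40. Mmp12, the macrophage elastase, had 29.3, 30.9, 24.7 and 41.5 in shCtrl tumours and 257, 130.1, 127 and 159.8 in shMdk tumours (log2 fold change 2.34 ± 0.31, adjusted p = 0.00129), and Mmp13, a collagenase, had 12.4, 5.33, 3.80 and 6.46 in shCtrl tumours and 69, 47.3, 51.2 and 93.6 in shMdk tumours (log2 fold change 3.11 ± 0.42, adjusted p = 0.00144). Lpl and Cd36 belong to lists, and the list of 22 fatty acid genes that holds Cd36 had 1 member higher and 1 lower (median 0.14). Other metalloproteinase genes did not pass, such as Mmp8 (adjusted p = 0.704) and Mmp3 (0.88). Of the 8 fits that left out 1 tumour, Cd36 lost its call in 3, with an adjusted p of up to 0.0861 (without shMdk tumour 4). Nr1h3 lost it in 7, with an adjusted p of up to 0.0848 (without shCtrl tumour 4). For Lpl, Mmp12 and Mmp13 every shMdk tumour lay above every control. Slamf8, a receptor of activated myeloid cells, had 10.1, 12.8, 7.61 and 4.62 in shCtrl tumours and 90.1, 47.3, 100.5 and 125 in shMdk tumours (log2 fold change 3.22 ± 0.43, adjusted p = 0.00129). Tmem173, which encodes the DNA sensor adaptor STING, had 495, 469, 350.0 and 356 in shCtrl tumours and 688, 749, 712 and 744 in shMdk tumours (log2 fold change 0.81 ± 0.16, adjusted p = 0.0115). Without the 5 tumours of positive GC slope, Mmp12, Mmp13 and Slamf8 passed by limma (adjusted p = 0.0464 for each). Lpl (0.119), Cd36 (0.0965), Nr1h3 (0.158), Pltp (0.152) and Tmem173 (0.0524) did not.

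Xist, the RNA that coats the inactive X chromosome, had 159.8, 113, 78.9 and 157 in shCtrl tumours and 477, 212, 264 and 451 in shMdk tumours (log2 fold change 1.43 ± 0.32, adjusted p = 0.0269). It lost the call in 5 of the 8 fits that left out 1 tumour, with an adjusted p of up to 0.112 (without shCtrl tumour 3). Without the 5 tumours of positive GC slope its adjusted p was 0.152. The sex of the host mice and of the donor of the line was not given in the sources used here.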
